A study of Mus musculus with 16 samples.

Results

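The Kcnq1ot1 imprinted domain of mouse chromosome 7 was taken as the CpGs that lay from 2000 bp before the start to the end of any of 4 genes, Kcnq1ot1, Kcnq1, Cdkn1c and Phlda2, in the GENCODE M21 annotation of mm10. Where every one of the 16 libraries had 10 reads or more, 223 CpGs of the 1203687 in the series were members, and all 223 lay at a CG of the GRCm38 reference (mm10). The methylation level of a CpG was its methylated reads as a percentage of all its reads. The rule for members used gene names and positions and no measured value, but the domain was picked with earlier results of these data known.

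Genomic imprinting is the expression of a gene from the copy of only 1 parent. In this domain the promoter of Kcnq1ot1, a long noncoding RNA, is methylated in the egg and stays unmethylated on the copy from the father, which makes the RNA, and Kcnq1ot1 lies inside an intron of Kcnq1 and is read against it. On that paternal copy the neighbouring genes are silenced, among them Cdkn1c, which encodes an inhibitor of the cell cycle, and Phlda2, which limits the growth of the placenta, while Kcnq1 encodes a potassium channel subunit. A CpG of the imprint with 1 methylated and 1 unmethylated copy in every cell has a level of 50%.

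Target capture bisulfite sequencing (tcBS-seq) reads cytosine methylation at CpGs that were pulled down with probes. The cells were fibroblasts from sibling C57BL/6J embryos of day 13.5, and both cultures were immortalised by serial passage without any transgene being stated. The methods give the MEF-1 embryo as male and the MEF-2 embryo as female. Each of the 2 parental cultures was sequenced once, with no replicate, and each gave 7 clonal lines grown from single sorted cells, which were the replicates of their family. All lines of a family descend from 1 embryo and 1 immortalised culture, so embryo, sex and culture history cannot be told apart. The p-values of tests over lines measure the spread between these lines. Those of a single line against its parental library cover read sampling only.

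The libraries held 59243669 to 90633091 CpG calls, each of them 1 read at 1 CpG, and the median coverage of a member CpG was 24 reads. Against their parental library 1.34 to 1.54% of all CpGs were called in MEF-1 lines 1, 4 and 5 and 4.54 to 5.53% in lines 2, 3, 6 and 7, and the main differences were also computed without either set. Relative coverage of chromosome 7, which is the coverage per library over that of its median autosome, set to the median MEF-2 clonal line, was 0.832, 0.816, 0.899 and 0.841 in MEF-1 lines 1, 3, 6 and 7 and between 0.945 and 1.03 in the other 12 libraries. Counts of chromosome copies were not made. The differences between families of regions, and the shifts of the lines from their parents, are also given without these 4 lines.

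Kcnq1ot1 (ENSMUSG00000101609.2) reaches from 143203458 to 143296549 on the minus strand, inside Kcnq1 (ENSMUSG00000009545.14, 143106362 to 143427042, plus strand). Cdkn1c (ENSMUSG00000037664.13) lies at 143458339 to 143461050 and Phlda2 (ENSMUSG00000010760.5) at 143501545 to 143503150, both on the minus strand. The imprint was set as 500 bp before to 2000 bp after the Kcnq1ot1 start and held 56 of the 105 CpGs of that window in the reference. The part of the window over 1100 bp after the start had 0 measured CpGs. A CpG island that holds the start covers 143294958 to 143296694 with 99 CpGs, of which 54 were measured. These 54 are among the 56 of the imprint, so the island is not a separate set. The rest of Kcnq1ot1 had 0 measured CpGs, so nothing can be said of its transcribed body. Promoters reached from 1000 bp before to 500 bp after the annotated gene start, with 16 CpGs for Kcnq1, 1 for Cdkn1c and 17 for Phlda2. The Kcnq1 body was split at the Kcnq1ot1 gene into a 5′ side of 70 CpGs and a 3′ side of 15, and the bodies of Cdkn1c and Phlda2 held 5 and 43. The 5′ side also holds the start of the longest coding transcript of Kcnq1 (143107254). What is called the Kcnq1 body is therefore not gene body alone.

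The sequences that carry the results are shown from GRCm38 in the direction of the gene named, with every CG in capitals. The first spans the Kcnq1ot1 start (chr7:143296400-143296699, minus strand), which holds the 2 CpGs of the imprint with the largest family difference, both just before the start. The next is the densest block of measured CpGs inside the transcript (chr7:143295558-143295741, minus strand), which holds the CpG of the imprint with the highest mean level. The others surround the single measured CpG of the Cdkn1c promoter (chr7:143461598-143461679, minus strand) and the CpG of the Kcnq1 introns with the largest family difference (chr7:143152260-143152341, plus strand).
Kcnq1ot1 start: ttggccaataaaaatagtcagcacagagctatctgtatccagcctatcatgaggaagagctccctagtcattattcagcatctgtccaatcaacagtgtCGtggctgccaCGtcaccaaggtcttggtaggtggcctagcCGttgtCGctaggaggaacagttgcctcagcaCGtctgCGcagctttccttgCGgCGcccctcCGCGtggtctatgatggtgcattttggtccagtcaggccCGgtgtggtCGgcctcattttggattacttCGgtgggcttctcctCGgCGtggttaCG
Kcnq1ot1 inner block: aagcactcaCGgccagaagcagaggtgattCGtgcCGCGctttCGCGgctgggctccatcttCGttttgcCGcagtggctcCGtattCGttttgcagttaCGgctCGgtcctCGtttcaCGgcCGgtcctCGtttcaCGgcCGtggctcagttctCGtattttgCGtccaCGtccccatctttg
Cdkn1c promoter: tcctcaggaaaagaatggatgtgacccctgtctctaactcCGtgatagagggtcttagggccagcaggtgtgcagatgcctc
Kcnq1 intron: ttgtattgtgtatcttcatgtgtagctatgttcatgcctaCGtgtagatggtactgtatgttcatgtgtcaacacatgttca

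Of the 300 bases at the start 16 CpGs were in the reference and 13 were measured, and in the 184 bases of the inner block 20 of 21 were measured. ZFP57, a zinc finger protein that keeps the methylation of imprints after fertilisation, binds the letters TGCCGC when methylated. TGCCGC occurred 3 times on both strands of the 2501 bp imprint window, and 4.44% of the windows of the same size at all 45864 gene starts searched held at least as many. Among the 5749 windows whose CpG number was like that of the imprint, the share was 11.0%. The letters CCAAT, bound by the factor NF-Y, occurred 8 times, against at least as many in 6.99% of all windows and in 3.55% of those of like CpG number. The windows of 3 other imprints, Airn, Peg3 and Mest, held 8, 8 and 11 TGCCGC, more than that of Kcnq1ot1, and 4, 5 and 3 CCAAT. The measured CpGs inside a TGCCGC were 2, and their mean level was 55.3% ± 15.9 (SD, n = 7 lines) in MEF-1 and 44.5% ± 9.30 in MEF-2, beside 50.4% ± 6.56 and 38.7% ± 4.81 at the other 54. These matches are descriptions of the letters and not of binding.

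The Kcnq1ot1 imprint had intermediate methylation in every library, and it was higher in the MEF-1 than in the MEF-2 clonal lines. The mean over its 56 CpGs was 45.5% in the MEF-1 parental library (726 of 1599 reads pooled, 95% Wilson interval 43.0 to 47.9%) and 46.0% in the MEF-2 parental library (811 of 1853 reads, interval of the pooled reads 41.5 to 46.0%). These intervals cover counting error only, and they are too narrow because neighbouring CpGs share reads. The distance between the parental cultures depended on the CpGs used. It was -0.53 points (MEF-1 minus MEF-2) over all 56 CpGs, 1.64 points from pooled reads and 5.53 points over 6 CpGs at least 200 bp apart (49.5 and 43.9%), and in the 6 CpGs before the start the parents had 42.2 and 31.7%.

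In MEF-1 clonal lines 1 to 7 the imprint stood at 53.0, 44.2, 58.7, 46.6, 42.7, 58.8 and 50.2%. In MEF-2 lines 1 to 7 it stood at 43.3, 36.9, 39.2, 43.3, 34.5, 31.9 and 43.6%. The families overlapped only where MEF-1 line 5 lay below the 3 highest MEF-2 lines. The means were 50.6% ± 6.58 (SD, n = 7) and 38.9% ± 4.73, a difference of 11.7 points (exact permutation test over lines, two-sided, p = 0.0035, adjusted p = 0.0061 over the 7 regions with at least 3 CpGs). The difference was 10.6 points after the start only, 13.1 points over 6 CpGs at least 200 bp apart (about 1 captured fragment) and 11.4 points over the CpG island. With a minimum of 20 reads 5 CpGs were left, all 5 before the start, and their difference was 23.1 points (exact permutation, adjusted p = 0.00155). The settings after the start and of CpGs apart, and those without MEF-1 lines 1, 3, 6 and 7, were chosen after the data were seen.

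**Figure D1:**
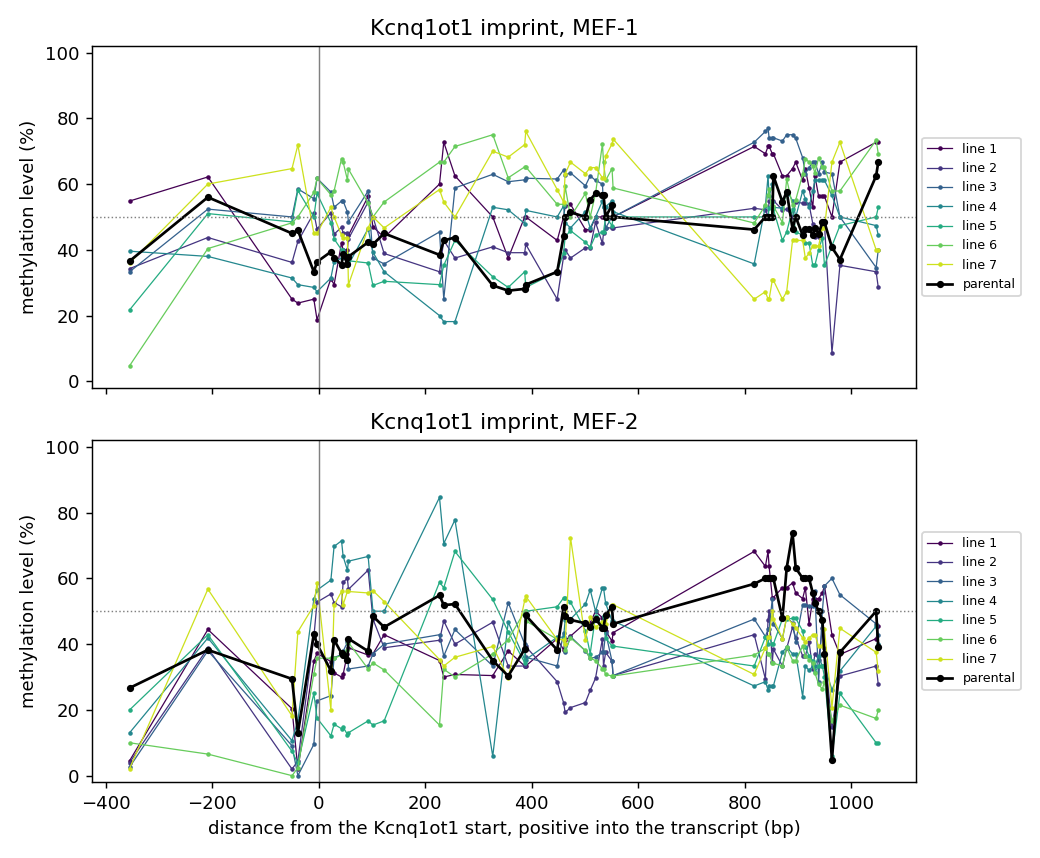
Methylation level (%) of the 56 CpGs of the imprint against the distance from the Kcnq1ot1 start (bp, positive into the transcript), with 1 coloured line for each clonal line and black for the parental library, MEF-1 above and MEF-2 below; the dotted line is at 50%. Before the start most MEF-2 lines lie under the MEF-1 lines, and further inside the lines cross, with single lines of both families changing level between sections.

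The MEF-1 lines with low coverage of chromosome 7 had the higher imprint levels. The 4 lines with the lowest coverage (1, 3, 6 and 7) had imprint levels from 50.2 to 58.8%, and lines 2, 4 and 5 from 42.7 to 46.6%, without overlap. The 5 Mb on both sides of the domain had the same split in coverage. Lines 1, 3, 6 and 7 had 0.827, 0.819, 0.897 and 0.830 there, and lines 2, 4 and 5 had 0.943, 0.969 and 1.01. Over the CpGs of the domain line 3 (0.922) lay above line 2 (0.893). Coverage of the imprint itself did not have this order either. It was 0.623, 0.847, 0.933, 0.836, 0.797, 0.745 and 0.659 of the median MEF-2 line in MEF-1 lines 1 to 7, so line 3, with one of the highest levels, had the highest coverage there, and it was 0.808 to 1.03 in MEF-2 lines. Without lines 1, 3, 6 and 7 the family difference was 5.55 points (exact permutation p = 0.108, adjusted p = 0.152), and without lines 2, 3, 6 and 7 it was 8.49 points (exact p = 0.050, adjusted p = 0.0875), where 3 lines against 7 cannot give p under 0.00833. Without lines 1, 4 and 5 it was 14.0 points (exact p = 0.0030, adjusted p = 0.0071). Whether a changed copy number of chromosome 7 has a part in the imprint level was not tested.

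**Figure D2:**
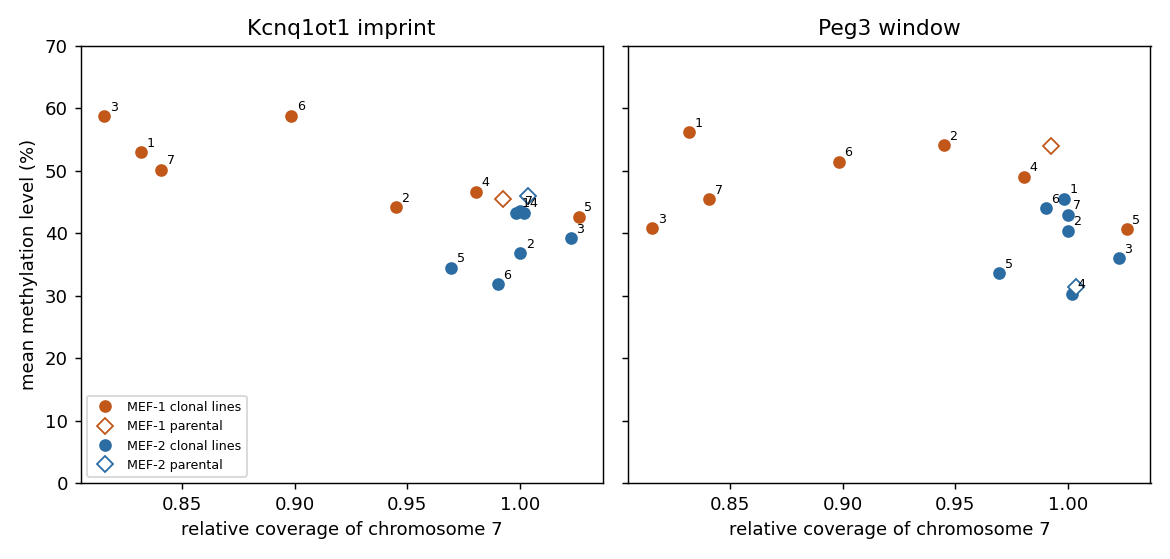
Mean methylation level (%) of the Kcnq1ot1 imprint (left) and of the Peg3 window (right), both on chromosome 7, against the relative coverage of chromosome 7 in each library; filled circles are clonal lines with their numbers and open diamonds parental libraries. The MEF-1 lines of low coverage have the highest imprint levels at Kcnq1ot1, whereas at Peg3 they are mixed with the other MEF-1 lines.

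Over all 56 CpGs the MEF-1 clonal lines lay on average above and the MEF-2 lines below their parental library. MEF-1 lines lay 5.10 ± 6.58 points (SD, n = 7) above their parental library, with 5 of 7 lines above it. MEF-2 lines changed by -7.09 ± 4.73 points, with 0 of 7 lines above it. The difference of these shifts was 12.2 points (exact permutation test, two-sided, p = 0.0023, adjusted p = 0.0082 over 7 regions). Without MEF-1 lines 1, 3, 6 and 7 the MEF-1 lines lay at -1.02 ± 2.01 points (SD, n = 3), with 1 of 3 above the parent, and the difference of the shifts was 6.07 points (exact permutation, adjusted p = 0.117). It was 9.01 points (exact permutation, adjusted p = 0.0817) without MEF-1 lines 2, 3, 6 and 7. Over the 6 CpGs at least 200 bp apart MEF-1 lines lay at 1.39 ± 6.68 points and MEF-2 lines at -6.17 ± 6.45 points, and the call was lost there too (difference 7.56 points, exact permutation, adjusted p = 0.0969). Over the 5 CpGs with at least 20 reads the shifts were 0.15 ± 7.49 and -9.68 ± 8.49 points (difference 9.83 points, exact permutation, adjusted p = 0.0591). The MEF-1 shift therefore depended on the lines and on the CpGs used. Each parental value is 1 library, and its own error is not in these tests.

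Seen over 6 CpGs at least 200 bp apart, the 95% Wilson interval of the pooled reads held 50% in 7 of 7 MEF-1 lines and in 2 of 7 MEF-2 lines. MEF-2 line 6 was the lowest, with 50 of 204 reads methylated (24.5%, interval 19.1 to 30.8%). The SD between lines was 6.29 points in MEF-1 and 7.56 in MEF-2, where sampling of independent reads gives 4.19 and 3.75. That figure is too small if reads are copies of 1 molecule, and duplicate removal is not stated.

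The imprint was not uniform along its length. In the 6 CpGs before the start MEF-1 lines averaged 43.8% ± 8.08 and MEF-2 lines 23.7% ± 9.11 (SD, n = 7). In the 11 CpGs up to 250 bp inside it was 45.4% ± 8.56 and 41.7% ± 14.2. The 17 CpGs from there to 600 bp had 52.3% ± 9.78 and 41.3% ± 5.93, and the 22 CpGs over 600 bp inside had 53.8% ± 10.3 and 39.9% ± 8.58. Thus the families were far apart before the start and close to each other only in the first 250 bp after it.

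Single lines changed level between these sections. MEF-2 line 4 had 65.2% up to 250 bp inside the transcript and 32.6% over 600 bp inside. MEF-2 line 5 had 22.5% up to 250 bp, 47.4% from there to 600 bp and 34.6% beyond, and MEF-1 line 7 had 47.3, 65.3 and 39.0% in the same sections. MEF-1 line 2 was level, with 45.1, 40.9 and 46.8%.

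At the CpG closest to the start (position 143296552, 3 bp before it) MEF-1 lines 1 to 7 had 18.8, 46.3, 61.8, 27.3, 57.1, 61.7 and 45.0% and the parental library 36.4%. MEF-2 lines had 37.2, 52.8, 22.7, 56.4, 17.5, 35.7 and 58.6% and the parental library 40%. The ranges of the families were nearly the same, and the difference of 5.29 points had an adjusted p of 0.506 (quasi-binomial test over the 14 lines, Benjamini-Hochberg over all CpGs of the series). The CpG with the highest mean over all 14 lines (50.7%) lay 890 bp inside the transcript, with 56.2% ± 10.5 in MEF-1 and 45.2% ± 7.75 in MEF-2 (quasi-binomial adjusted p = 0.149).

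The CpG with the lowest mean, 20.1%, lay 355 bp before the start at position 143296904. MEF-1 lines 1 to 7 had 54.8, 34.3, 33.3, 39.6, 21.7, 4.76 and 36% there and MEF-2 lines 4.55, 4.00, 2.63, 13.0, 20%, 10% and 2.17%. The parental libraries had 36.6 and 26.7%. All MEF-2 lines lay below their own parent, which the choice of the lowest clonal mean favours in advance. Among MEF-1 lines only line 6 fell into the MEF-2 range (difference 24.0 points, quasi-binomial adjusted p = 0.0151).

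Between the families 4 of the 56 imprint CpGs were called at an adjusted p under 0.05, all 4 higher in MEF-1. This is 7.14%, beside 20.2% of all CpGs of the series called in either direction and 11.6% called and higher in MEF-1. Of these, 3 lay before the start, at 39, 50 and 355 bp, and the remaining CpG 939 bp inside. At the CpG 50 bp before the start, MEF-1 lines 1 to 7 had 25.0, 36.2, 50.0, 31.4, 48.5, 48.2 and 64.7% and MEF-2 lines 20.4, 2.00, 9.09, 10.6, 7.41, 0 and 18.2%. The families did not overlap there (33.8 points, quasi-binomial adjusted p = 0.000773). At the CpG 39 bp before the start MEF-1 had 47.8% ± 17.1 and MEF-2 10.4% ± 15.7 (quasi-binomial adjusted p = 0.00995), with MEF-2 line 7 at 43.8% and the other MEF-2 lines at most at 16.7%. These 2 CpGs lie between both CCAAT of the sequence at the start and the start itself. Although few imprint CpGs were called, 55 of 56 had the higher mean in MEF-1, with a median difference of 11.5 points, beside 58.7% of all CpGs and a median of 0.62 points. Neighbouring CpGs share reads, so this count restates the difference of the region and is not 56 separate results. The values of all CpGs include sites of every level and not only intermediate ones.

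**Figure D3:**
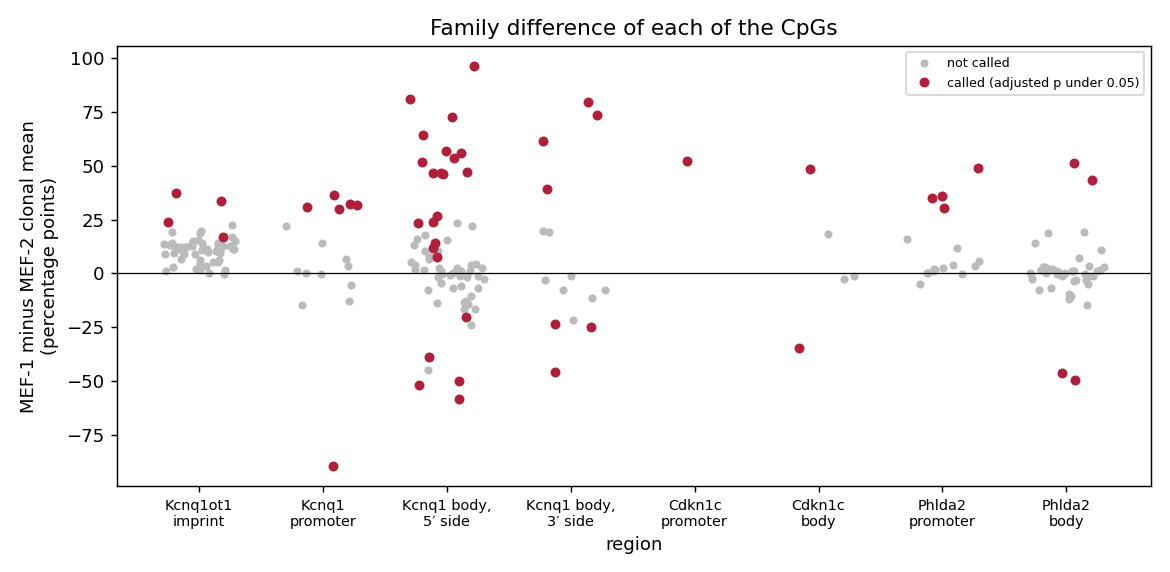
MEF-1 minus MEF-2 clonal mean (percentage points) of each of the 223 CpGs by region, with the 51 called CpGs (quasi-binomial test, adjusted p under 0.05) in red and the others in grey. The imprint CpGs form a narrow band above 0, while those of the Kcnq1 promoter and body reach from -89.7 to 96.5 points.

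Over the whole domain 51 of the 223 CpGs were called, which is 22.9% beside the 20.2% of the series. In 39 the MEF-1 mean was the higher and in 12 the MEF-2 mean, where 11.6 and 8.53% of all CpGs were called in these directions. Outside the imprint 47 of 167 CpGs were called (28.1%), and 12 of them were higher in MEF-2. The lines of the families did not overlap at 30 CpGs of the domain (13.5%, beside 9.41% of all CpGs). The median size of the difference at called CpGs of the domain was 45.6 points.

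The Kcnq1 promoter, set at the annotated gene start, was not called as a region. Its 16 CpGs averaged 30.4% ± 5.55 over MEF-1 lines and 25.0% ± 3.15 over MEF-2 lines, with parental values of 34.4 and 29.3% (difference 5.35 points, exact permutation p = 0.0536, adjusted p = 0.0751). The call changed with 1 line, since the adjusted p was 0.0204 without MEF-1 line 3 (6.61 points) and 0.0457 without MEF-1 line 4 (6.23 points), both by exact permutation. It also changed with a minimum of 20 reads (7 CpGs, 11.2 points, exact permutation, adjusted p = 0.0268), and without MEF-1 lines 1, 3, 6 and 7 the difference was 7.27 points (exact permutation, adjusted p = 0.0729). The difference was 1.54 points with a minimum of 5 reads, 2.71 points with only the 1000 bp before the start and 0.13 points around the start of the longest coding transcript (143107254), the last a setting chosen after the data were seen.

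Single CpGs of the Kcnq1 promoter went in opposite directions. At position 143106773, which the annotation gives as UTR, MEF-1 lines 1 to 7 had 0, 3.70, 5.13, 3.45, 3.03, 9.52 and 10.7% and MEF-2 lines 93.9, 97.0, 92.9, 88.5, 91.2, 100 and 100%. The parental libraries had 5.41% (2 of 37 reads) and 97.9% (47 of 48 reads), so each family stayed at its parent (MEF-1 minus MEF-2 -89.7 points, quasi-binomial adjusted p = 8.24e-08). The measured CpGs called on both sides of it, at 143106683 and 143106807, were higher in MEF-1 by 31.0 and 31.8 points. The measured CpGs closer to it, at 143106756 and 143106798, were not called. They differed by -14.7 and 6.62 points (quasi-binomial adjusted p = 0.153 and 0.752), so the nearest had the same direction. In all 6 of 16 CpGs were called there (37.5%, beside 20.2% of all CpGs), 5 of them higher in MEF-1, the direction of 11.6% of all CpGs.

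The body of Kcnq1 on its 5′ side, which includes CpGs around the start of the longest coding transcript, was higher in MEF-1 in every line. MEF-1 lines 1 to 7 had 41.1, 34.9, 35.1, 39.8, 36.2, 35.6 and 37.2% and MEF-2 lines 27.5, 27.7, 26.5, 29.7, 28.8, 28.4 and 28.3%, without overlap. The parental libraries had 36.1 and 32.0%, closer to each other than the clonal lines. The difference of the clonal means was 9.002 points (exact permutation p = 0.000583, the smallest that 7 against 7 lines can give, adjusted p = 0.00136). Among its 70 CpGs 23 were called (32.9%, beside 20.2% of all CpGs), of which 18 were higher in MEF-1 and the other 5 in MEF-2, where all CpGs had 11.6 and 8.53%. The median CpG difference was 2.60 points, below the mean difference. The difference was 5.96 points with a minimum of 5 reads (114 CpGs) and 20.1 points with 20 (22 CpGs), and 8.83 points without MEF-1 lines 1, 3, 6 and 7 (exact permutation, adjusted p = 0.0292).

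The CpG with the largest difference lay in an intron, 45938 bp after the Kcnq1 start at 143152300, within the intron sequence shown above. MEF-1 lines had 93.6 to 100% there, with a median at full methylation, and the MEF-1 parental library 95.6% (86 of 90 reads). MEF-2 lines 1 to 7 had 7.50, 0, 0, 1.49, 1.61, 1.19 and 5.00% and their parental library 26.0% (27 of 104 reads, Wilson interval 18.5 to 35.1%). The difference was 96.5 points (quasi-binomial adjusted p = 9.98e-08), and all MEF-2 lines lay below their parent. The CpG was picked by its clonal means, which favours lines beyond the parent, so nothing is drawn from that position.

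On the 3′ side, between the Kcnq1ot1 start and the end of Kcnq1, the 15 CpGs had 36.9% ± 2.24 in MEF-1 and 27.1% ± 5.34 in MEF-2, again without overlap (lowest MEF-1 line 32.6%, highest MEF-2 line 32.5%; difference 9.76 points, exact permutation p = 0.000583, adjusted p = 0.00136). The size depended on the CpGs and weights used, with 18.2 points at a minimum of 5 reads (42 CpGs), 60.1 at 20 (3 CpGs) and 22.2 from pooled reads. Without MEF-1 lines 1, 3, 6 and 7 (10.6 points) or 2, 3, 6 and 7 (9.81 points) the call was lost (exact permutation, adjusted p = 0.0583 in both). Only 3 MEF-1 lines entered in either case, and the difference was not smaller than with all 7. The median CpG difference had the other sign, -3.10 points, since MEF-1 had the higher mean at 6 of 15 CpGs. Of the 7 called (46.7%, beside 20.2% of all CpGs), 4 had the higher level in MEF-1, the other 3 in MEF-2. The MEF-1 parental library stood at 48.9% and all 7 MEF-1 lines lay below it, by 12.0 ± 2.24 points on average. MEF-2 lines differed from their parental library (31.7%) by -4.51 ± 5.34 points (test of the difference between families, exact permutation p = 0.00874, adjusted p = 0.0204), a difference of -7.49 points. It was -7.53 points without MEF-1 lines 1, 4 and 5, -7.44 without 2, 3, 6 and 7 and -6.63 without 1, 3, 6 and 7, and the call was lost in each case (exact permutation, adjusted p = 0.0689, 0.0817 and 0.14). The direction turned with the CpGs used. With a minimum of 5 reads MEF-1 lines lay at -4.38 ± 2.37 and MEF-2 lines at -10.8 ± 4.89 points from their parent (difference 6.44 points, exact permutation, adjusted p = 0.0184). The difference was 19.3 points with a minimum of 20 reads (exact permutation, adjusted p = 0.0256) and 0.38 points from pooled reads (exact permutation, adjusted p = 0.936).

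At the intronic CpG of that side with the largest difference, 143400978, MEF-1 lines had 98.0 to 100% and the parental library 96.4%. MEF-2 lines 1 to 7 had 44.6, 0, 9.26, 4.55, 37.5, 34.8 and 7.81% and their parental library 38.8% (26 of 67 reads). MEF-2 lines thus spread from unmethylated to above their parent while MEF-1 lines were alike (79.9 points, quasi-binomial adjusted p = 2.91e-05).

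**Figure D4:**
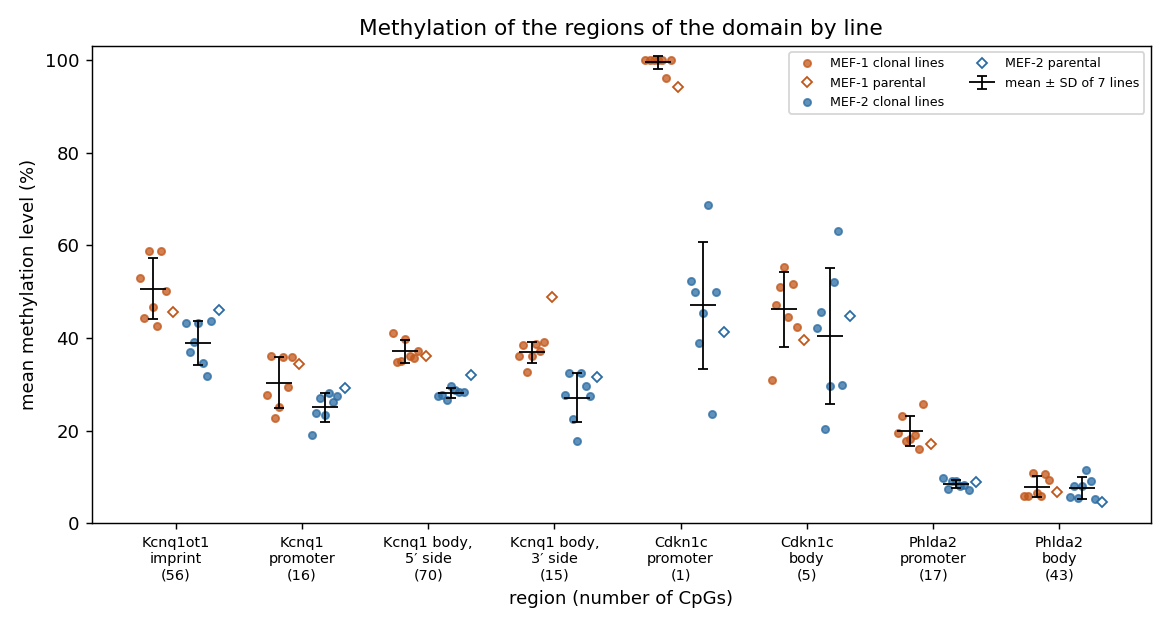
Mean methylation level (%) of each region by library, with filled circles for the 7 clonal lines of a family, open diamonds for its parental library, and a black bar with whiskers for the mean ± SD of the lines; the number of CpGs is given under each region. The families are apart at both sides of the Kcnq1 body, at the single Cdkn1c promoter CpG and at the Phlda2 promoter, overlap at the edge in the imprint, and are mixed in the bodies of Cdkn1c and Phlda2.

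Cdkn1c, whose product restrains the cell cycle, was covered thinly. The gene and its 2000 bp before the start held 6 measured CpGs of 314 in the reference. The only promoter CpG lay 588 bp before the start at 143461638, outside the gene, and it was methylated in MEF-1 and intermediate in MEF-2. MEF-1 line 6 had 96.2% and the other 6 MEF-1 lines 100%, beside 94.1% in the parental library (16 of 17 reads, Wilson interval 73.0 to 99.0%). MEF-2 lines 1 to 7 had 52.4, 50.0, 38.9, 45.5, 68.8, 23.5 and 50.0% and their parental library 41.3% (19 of 46 reads, interval 28.3 to 55.7%). The families did not overlap (52.5 points, 11 to 27 reads in each clonal line, quasi-binomial adjusted p = 1.19e-05).

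With a minimum of 5 reads 4 CpGs of the Cdkn1c promoter were measured, with 80.6% ± 10.0 over MEF-1 lines and 38.9% ± 7.57 over MEF-2 lines. The lowest MEF-1 line then had 65.6% and the highest MEF-2 line 45.5%. In the body of Cdkn1c 5 CpGs had 46.1% ± 8.02 in MEF-1 and 40.4% ± 14.7 in MEF-2, a difference of 5.71 points within the spread of the lines (exact permutation p = 0.383, adjusted p = 0.447; the median CpG difference was -1.04 points). It ranged from 2.38 points without MEF-2 line 3 to 9.48 points without MEF-2 line 6, and was 2.50 points with a minimum of 5 reads and 8.55 points without MEF-1 lines 1, 3, 6 and 7 (exact permutation, adjusted p = 0.367). Of these CpGs 2 were called (40%, beside 20.2% of all CpGs), 1 in each direction, where all CpGs had 11.6 and 8.53%. A coding exon CpG at 143459133 was at 100% in all 7 MEF-1 lines and between 30.8 and 91.7% in MEF-2 lines (48.4 points, quasi-binomial adjusted p = 7.99e-05), and an intron CpG at 143459100 was 34.6 points lower in MEF-1 (quasi-binomial adjusted p = 0.0142).

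Phlda2, which is expressed from the maternal copy, had low methylation that was higher in MEF-1 around its start. The promoter levels of MEF-1 lines 1 to 7 were 19.6, 23.1, 17.8, 18.2, 19.02, 16.1 and 25.6%, and those of MEF-2 lines 9.72, 7.49, 9.08, 9.17, 8.06, 8.27 and 7.28%. The lowest MEF-1 line lay above the highest MEF-2 line, and the parental libraries had 17.1 and 8.87% (difference of the clonal means 11.5 points, exact permutation p = 0.000583, adjusted p = 0.00136). The median CpG difference was 3.58 points, below the mean difference. Of the 17 CpGs 4 were called (23.5%, beside 20.2% of all CpGs), all 4 higher in MEF-1, where 11.6% of all CpGs were called in that direction. Without MEF-1 lines 1, 3, 6 and 7 the difference was 11.6 points (exact permutation, adjusted p = 0.0292).

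The largest difference lay 52 bp after the Phlda2 start, at 143503098 in an exon. MEF-1 lines 1 to 7 had 75.0, 32.1, 52.0, 33.3, 43.1, 54.1 and 54.8% there, and their parental library 40.6%. In MEF-2 all 7 lines were at 0, with 0 of 261 reads methylated, which allows a share of up to 1.15%, and the parental library had 0 of 40 reads (49.2 points, quasi-binomial adjusted p = 1.84e-06). With the promoter set at the start of the longest coding transcript (143502541) the region held 43 CpGs, and the means were 11.1% ± 2.26 and 6.38% ± 1.65 (exact permutation p = 0.00175, adjusted p = 0.00408; a setting chosen after the data were seen).

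The region named the body of Phlda2 also holds the start of the longest coding transcript (143502541), so it is not gene body alone. It was low in methylation in both families, which differed there by less than the spread of the lines, with 7.91% ± 2.29 in MEF-1 and 7.60% ± 2.32 in MEF-2 over 43 CpGs (difference 0.31 points, exact permutation p = 0.797). Of these, 4 CpGs were called (9.30%, beside 20.2% of all CpGs), 2 in each direction. At the coding exon CpG 143502411 MEF-1 lines had 27.8 to 84.2% with a parental value of 45.0%, and MEF-2 lines 0 to 26.3% with a parental value of 15.4% (51.5 points, quasi-binomial adjusted p = 0.00213). The direction of the region mean turned without MEF-1 line 3 or 6 or without MEF-2 line 1, 3 or 7, with values from -0.18 to 0.96 points over all single lines left out, and was -1.42 points without MEF-1 lines 1, 3, 6 and 7.

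Clones of 1 family stood far apart at some member CpGs. The lowest and the highest line lay at least 50 points apart at 36 of 223 CpGs for MEF-1 (16.1%, beside 11.4% of all CpGs) and at 47 for MEF-2 (21.1%, beside 17.0%). In the imprint 5 CpGs (8.93%) had such a span in MEF-1 and 10 (17.9%) in MEF-2. On the 5′ side of the Kcnq1 body 14 CpGs (20%) had it in MEF-1 and 20 (28.6%) in MEF-2. Lines at no more than 10% and others at 90% or more within 1 family were found at 0 of the 56 CpGs of the imprint, 5 of the 85 of the Kcnq1 body and 1 of the 43 of the Phlda2 body, beside 1.67% of all CpGs.

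Against their parental library few CpGs of the domain were called in a single line (Fisher's exact test per CpG, adjusted over all CpGs within the line). This test sets 1 library against 1 library and takes each read as a separate molecule, while duplicate removal is not stated. MEF-1 lines 1 to 7 had 3, 5, 10, 0, 4, 12 and 9 called CpGs, which is 1.35, 2.24, 4.48, 0, 1.79, 5.38 and 4.04% of the domain, beside 1.49, 5.53, 4.81, 1.34, 1.54, 4.95 and 4.54% of all CpGs. MEF-2 lines 1 to 7 had 16, 10, 15, 16, 20, 24 and 16, which is 7.17, 4.48, 6.73, 7.17, 8.97, 10.8 and 7.17% of the domain, beside 6.58, 6.03, 4.68, 6.39, 7.38, 7.93 and 6.98%. The domain thus lay close to the series in most lines, with a mean of 2.75% ± 1.93 (SD, n = 7) in MEF-1 beside 3.46% and of 7.50% ± 1.95 in MEF-2 beside 6.57%. In MEF-1 line 4, with 0 calls, 14 of the 223 CpGs had an unadjusted p under 0.05 by Fisher's exact test. The share over all CpGs is not given for this count, so nothing is drawn from it. Summed over lines, MEF-1 had 26 calls above and 17 below the parent, and MEF-2 35 above and 82 below. Calls above the parent were 60.5 and 29.9% of these, beside 50.9 and 54.8% of the calls over all CpGs of the series. Most calls fell on the 5′ side of the Kcnq1 body (70 CpGs), with 22 in MEF-1 and 62 in MEF-2 lines, while the imprint (56 CpGs) had 3 and 10. The 3′ side had 4 and 20 on 15 CpGs, and the Kcnq1 promoter 4 and 11 on 16. The regions differ in size, so these counts do not rank them per CpG.

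A CpG was called faithful in a line at 0 to 10%, 40 to 60% or 90 to 100% methylation. These are windows at 0, 50 and 100%, the levels that a single cell can pass on unchanged. Faithful calls made up 52.9% ± 15.2 of the imprint CpGs and 72.8% ± 5.09 of the Kcnq1 body CpGs (SD, n = 14 lines), beside 83.3% ± 1.58 of all CpGs. The imprint had the lower share in 12 of 14 lines (difference -19.8 ± 16.3 points, exact sign-flip test over lines, two-sided, p = 0.00061). With wider windows of 0 to 20, 30 to 70 and 80 to 100% the difference was -2.89 points (exact sign-flip p = 0.163). With no window at 40 to 60% it was -54.2 points. That value is no test, since an imprint of intermediate level has few CpGs at 0 to 10 or 90 to 100% in advance. The share thus depended on the windows, and an imprint at 50% can leave the window from 40 to 60% by read sampling.

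At a true level of 50% sampling of independent reads puts 69.5% ± 4.91 of the imprint CpGs at 40 to 60%, given their coverage. Observed were 55.9% ± 12.9 in MEF-1 and 44.4% ± 18.3 in MEF-2 lines. MEF-1 lines 2 and 5 had 75.0 and 67.9%, where sampling gives 71.4 and 67.9%, and MEF-2 line 7 had 71.4% where it gives 71.2%. MEF-2 line 6 had 12.5%, the lowest, where it gives 78.6%. The imprint mean of that line was 31.9%, and a mean below 40% by itself leaves fewer CpGs at 40 to 60%. These shares therefore do not separate scatter from a shifted mean. In the Kcnq1 body 15.8% ± 3.63 of CpGs had such levels, and 56.97% ± 4.96 lay at 0 to 10 or 90 to 100%, beside 2.81% ± 3.11 in the imprint.

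**Figure D5:**
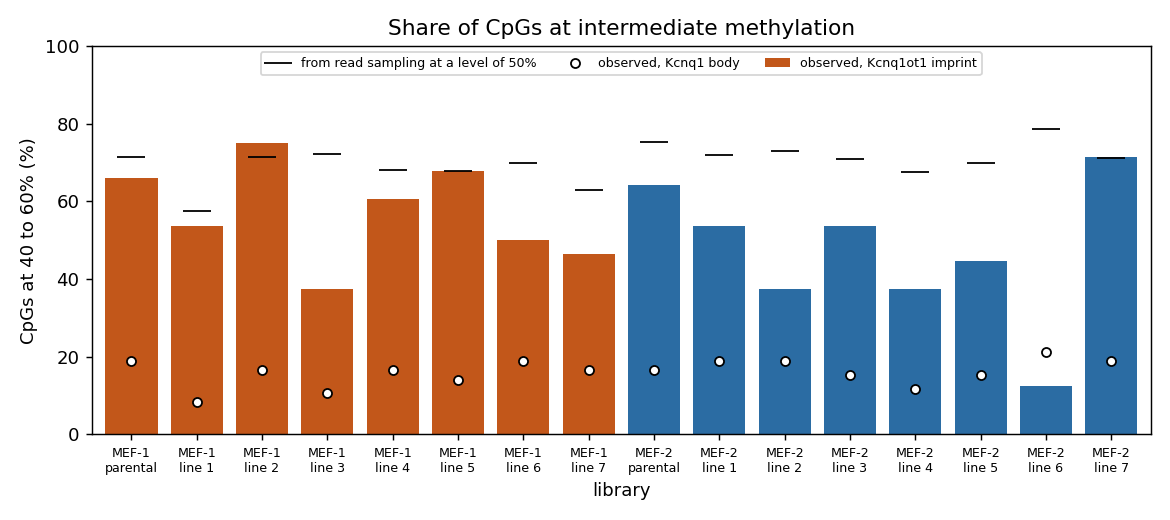
Share of CpGs (%) with a level of 40 to 60% in each library, as bars for the 56 imprint CpGs (orange MEF-1, blue MEF-2) and open circles for the 85 CpGs of the Kcnq1 body; black dashes give the share from read sampling at a true level of 50%. MEF-1 lines 2 and 5 and MEF-2 line 7 reach their dash, while MEF-2 line 6 stands at 12.5%.

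Neighbouring CpGs were more alike in the imprint. Of its 51 pairs at most 100 bp apart, 87.1% ± 5.94 were within 10 points of each other (SD, n = 14 lines), and the median gap was 3.61 points. In the Kcnq1 body 44.9% ± 7.78 of 57 pairs were within 10 points. The ranges did not overlap, since the lowest line of the imprint had 78.4% and the highest line of the body 54.4%. Neighbours are read on the same molecules, and the imprint is denser, so these shares are descriptions with no test.

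The family difference of the imprint was set beside other promoter imprints that are methylated in the egg, in windows of the same size. These were Airn on chromosome 17 (25 CpGs), a noncoding RNA that silences Igf2r, Peg3 on chromosome 7 (36 CpGs), which encodes a zinc finger protein, and Mest on chromosome 6 (27 CpGs), which encodes a hydrolase-like protein. Airn stood at 53.4% ± 7.97 in MEF-1 and 59.99% ± 4.69 in MEF-2, Peg3 at 48.2% ± 6.18 and 39.0% ± 5.76, and Mest at 50.3% ± 4.43 and 49.5% ± 2.67 (SD, n = 7). The clonal means of Peg3 therefore differed in the same direction as those of Kcnq1ot1, and those of Airn in the opposite. Parental values, MEF-1 first, were 54.0 and 31.5% at Peg3, 57.8 and 59.9% at Airn and 45.5 and 46.3% at Mest. At Peg3 the parents thus already stood apart in this direction, and the clonal means lay closer together. At Kcnq1ot1 the parents had 45.5 and 46.0% over all 56 CpGs, and the clonal means lay further apart.

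The difference of the Kcnq1ot1 imprint exceeded that of Airn by 18.3 points (exact permutation test of the within-line difference, p = 0.000583, adjusted p = 0.00175 over the 3 tests) and that of Mest by 10.8 points (exact p = 0.0152, adjusted p = 0.0227). It exceeded that of Peg3 by 2.41 points (exact p = 0.598, adjusted p = 0.598). With windows of 1000 bp on both sides the values were 15.8 and 8.07 points for Airn and Mest (both exact permutation, adjusted p = 0.0997), so these calls depend on the window. Without the MEF-1 lines of low chromosome 7 coverage they were 13.2 points for Airn (exact permutation, adjusted p = 0.025), 4.21 for Mest (adjusted p = 0.388) and -3.38 for Peg3 (adjusted p = 0.517). In the MEF-1 lines 1, 3, 6 and 7 Peg3 had 56.2, 40.8, 51.5 and 45.4%, and in lines 2, 4 and 5 54.1, 49.0 and 40.7%, so these groups overlapped there. Relative coverage of chromosome 17 was 0.840 in MEF-1 line 1, whose Airn level of 39.4% was the lowest.

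The other genes of the Igf2 and Kcnq1 region were described from a list of 16. Their 587 CpGs, each counted once, held 110 calls between the families (18.7%, beside 20.2% of all CpGs), of which 65 were higher in MEF-1 and the other 45 in MEF-2. The largest share lay at Slc22a18, a transporter gene between Cdkn1c and Phlda2, with 16 of 43 CpGs called (37.2%), 9 higher in MEF-1 and 7 in MEF-2. Its CpGs averaged 55.6% ± 2.01 over MEF-1 lines and 49.4% ± 1.61 over MEF-2 lines (SD, n = 7). H19, a noncoding RNA methylated on the paternal copy, had 12 of 39 called (30.8%), 6 in each direction, at 68.3% ± 3.23 and 68.4% ± 4.74. Tspan32 had 11 of 40 called (27.5%), 9 higher in MEF-1, at 63.2% ± 2.79 and 54.6% ± 1.60, and Cd81, which encodes a membrane protein, had 13 of 48 (27.1%), 8 higher in MEF-2, at 48.5% ± 0.87 and 50.6% ± 1.21.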

How the data were processed

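DNA methylation was read by tcBS-seq in 16 libraries. Per the labels and the study's methods, the authors trimmed reads with Trim Galore 0.6.0, aligned them to mm10 with Bismark, filtered by mapping quality, trimmed biased read ends, combined both strands and worked in R 3.6.1; whether PCR duplicates were removed is not said there. Deposited values are counts of unmethylated and methylated reads per CpG, without normalization. The series table (at least 10 reads in all 16 libraries, 16 chromosomes) held the same counts as the library tables at all 1203687 CpGs.

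Members, regions and gene lists were chosen with earlier results of these data known. Windows, promoters and genes came from GENCODE M21. The sequences shown come from the mm10 reference. Families were compared per CpG with a quasi-binomial F-test (dispersion not below 1) over all CpGs with Benjamini-Hochberg adjustment, and per region by exact two-sided permutation of the mean CpG levels of 7 against 7 lines. Fisher's exact test per CpG compared each line with its parental library. The tests were tested on simulated data. Intervals are 95% Wilson intervals, and the limit for a count of 0 is 3 reads. Named CpGs were, in the imprint, the one closest to the start and those with the highest and lowest mean; in other regions the called CpG with the largest difference; and of other genes the 4 with the largest share called. CpGs of the imprint that were called, those around the opposite Kcnq1 promoter CpG and the called Cdkn1c intron CpG were named after their values were seen. Same-numbered lines do not pair: correlations of their deviations from the family means were -0.0043 to 0.0035. Alternatives changed the minimum coverage (5 or 20), depth (10 reads), model, windows and lines used. Python 3.11.15, numpy 2.4.6, scipy 1.17.1, pandas 2.3.3, numba 0.67.0 and matplotlib 3.10.9 were used.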

Additional observations from a re-analysis of the deposited data

Results flagged for a closer look

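Of 22 groups of 7 lines tested for a sample far from the others, 2 had one, and chance gives about 1 in 20. At the Cdkn1c promoter CpG MEF-1 line 6 had 96.2% where the other MEF-1 lines had 100%, which is 1 unmethylated read of 26. In the Airn window MEF-2 line 6 had 50.3%, below the other MEF-2 lines.

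The shift of the clonal lines from their parental library differed between the families in 4 of 7 regions (exact permutation test, adjusted over the regions). The MEF-1 minus MEF-2 difference of this shift was 12.2 points in the Kcnq1ot1 imprint (exact permutation, adjusted p = 0.0082), 4.89 points on the 5′ side of the Kcnq1 body (adjusted p = 0.0041), -7.49 points on its 3′ side (adjusted p = 0.0204) and 3.24 points in the Phlda2 promoter (adjusted p = 0.0204). Without MEF-1 lines 1, 3, 6 and 7 the values were 6.07, 4.71, -6.63 and 3.42 points (exact permutation, adjusted p = 0.117, 0.0292, 0.14 and 0.0292). Without MEF-1 lines 1, 4 and 5 they were 14.6, 3.46, -7.53 and 3.99 points (adjusted p = 0.0106, 0.0106, 0.0689 and 0.0689), and without lines 2, 3, 6 and 7 they were 9.01, 6.79, -7.44 and 2.25 points (adjusted p = 0.0817, 0.0292, 0.0817 and 0.0292), all by exact permutation. The imprint value was 7.56 points over 6 CpGs at least 200 bp apart (exact permutation, adjusted p = 0.0969). With a minimum of 5 reads the 4 values were 9.21, 2.13, 6.44 and 4.35 points (exact permutation, adjusted p = 0.0347, 0.0481, 0.0184 and 0.0041) and from pooled reads 10.8, 7.60, 0.38 and 6.05 points (exact permutation, adjusted p = 0.0095, 0.0041, 0.936 and 0.0095). With a minimum of 20 reads they were 9.83, 13.4 and 19.3 points in the first 3 (exact permutation, adjusted p = 0.0591, 0.0023 and 0.0256), and the Phlda2 promoter had too few CpGs. The 3′ side thus turned in direction with the CpGs used. The parental value is 1 library in each family, and its error is not in the test.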

How the results depend on the processing

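The number of called CpGs was 51, and 82 of 386 CpGs with a minimum of 5 reads (21.2%, beside 18.2% of all CpGs), 18 of 38 with a minimum of 20 (47.4%, beside 23.2%; 100% of them higher in MEF-1), and 32 without MEF-1 lines 1, 3, 6 and 7 (14.3%, beside 11.8%; a setting chosen after seeing the data); fewer CpGs or lines enter the latter settings. Leaving out each line in turn gave 48 to 53 (21.5 to 23.8%, beside 18.3 to 19.3% of all CpGs). The linear model called 49 CpGs (22.0%, beside 18.1% of all CpGs), and 37 with a replicate block (16.6%, beside 14.1%). The numbers do not pair the lines, and 0 of 7 lines correlated best with their own number. The block changed no call of a region (imprint exact sign-flip p = 0.0156, the smallest 7 pairs can give). Leave-one-out ranges were 10.3 to 13.0 points for the imprint, 8.33 to 9.37 and 8.21 to 10.7 for the 5′ and 3′ sides of the Kcnq1 body, 4.37 to 6.61 for the Kcnq1 promoter, 10.5 to 12.1 for the Phlda2 promoter, 2.38 to 9.48 for the Cdkn1c body and -0.18 to 0.96 for the Phlda2 body. The Kcnq1 promoter passed the threshold with a minimum of 20 reads (11.2 points, exact permutation, adjusted p = 0.0268). Without MEF-1 lines 2, 3, 6 and 7 the imprint (8.49 points), the 3′ side of the Kcnq1 body (9.81 points, exact permutation, adjusted p = 0.0583) and Mest (6.32) lost their calls, and the Phlda2 body (-1.43) and Peg3 (-1.15) turned. Without MEF-1 lines 1, 3, 6 and 7 the imprint (5.55), the 3′ side (10.6, exact permutation, adjusted p = 0.0583) and Mest (4.21) lost theirs, and the Phlda2 body (-1.42) and Peg3 (-3.38) turned; 3 lines enter on one side. Windows of 1000 bp gave 15.8 points for Airn and 8.07 for Mest, and wider faithful windows gave -2.89 points, where the cause was not tested. Without the window at 40 to 60% the value was -54.2 points, which the intermediate level of the imprint sets in advance. The shifts from the parental library, whose alternatives were chosen after the data were seen, lost their call in the imprint (9.01 points without MEF-1 lines 2, 3, 6 and 7, 6.07 without 1, 3, 6 and 7, 7.56 over CpGs at least 200 bp apart and 9.83 with a minimum of 20 reads), on the 3′ side of the Kcnq1 body (-7.53 without MEF-1 lines 1, 4 and 5, -7.44 without 2, 3, 6 and 7 and -6.63 without 1, 3, 6 and 7) and in the Phlda2 promoter (3.99 without 1, 4 and 5), and turned in the Kcnq1 promoter (-0.61 without 2, 3, 6 and 7, -0.45 with a minimum of 20 reads) and on the 3′ side (6.44 with a minimum of 5 reads, 19.3 with 20, 0.38 with pooled reads); the Cdkn1c body passed with a minimum of 5 reads (7.26 points). Fisher's calls per line were 6.14 in MEF-1 and 16.7 in MEF-2 of 223 CpGs (2.75 and 7.50%, beside 3.46 and 6.57% of all CpGs). With a minimum of 20 reads they were 2.29 and 9.86 of 38 CpGs. The share of all CpGs is not given at that minimum, and with fewer CpGs the lower counts do not show a fall. Thinned to 10 reads they were 0 in both, and 0 CpGs of the series were called. When thinned, 5.43 and 8.00 CpGs of the domain per line had an unadjusted p under 0.05 by Fisher's exact test, with no share of all CpGs beside them. Other minimums, which change the CpGs that enter, moved sizes without changing these calls: the imprint differed by 11.6 points with a minimum of 5 reads (79 CpGs) and 23.1 with 20 (5 CpGs, all before the start), the 5′ side of the Kcnq1 body by 5.96 and 20.1, and the 3′ side by 18.2 and 60.1 (22.2 with pooled reads). With promoters of 1000 bp before the start, the Phlda2 promoter had too few CpGs for a value.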
